A study of Mus musculus with 24 samples.

Results

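The transcripts described here are 10 stress-induced genes of the mouse lung: 8 immediate-early genes (Fos, Fosb, Jun, Junb, Egr1, Nr4a1, Atf3 and Ier2) and the inducible Hsp70 genes Hspa1a and Hspa1b. They were taken by gene symbol from a table of 23891 genes, and all 10 were found. Immediate-early genes are transcribed within minutes of a stimulus, without new protein synthesis, and their mRNAs decay quickly. FOS and JUN proteins pair to form the AP-1 transcription factor, EGR1 and NR4A1 are further early transcription factors, and Hsp70 chaperones are induced through heat shock factor 1 when proteins misfold.

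RNA was measured in the left lung lobe of 24 C57BL/6 mice, with 1 library per mouse. The 4 groups were 5 naïve adult mice of 20 wk, 5 naïve aged mice of 80 wk, 7 aged mice challenged with house dust mite (HDM) and 7 aged mice challenged with HDM and treated with dexamethasone (HDM + Dex). HDM, an allergen extract, was given intranasally at 50 µg per dose, and the glucocorticoid Dex was injected intraperitoneally at 4 mg/kg, with 72 h between doses, over the challenge period. Lungs were taken 24 h after the last challenge, and naïve mice received saline. No adult mice with HDM were analysed here, so the HDM comparisons apply to aged mice only. Replicate numbers follow the labels.

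Expression was given by the authors as CPM, read counts per gene scaled so that each sample has the same total. The estimated depth was 10.1 to 33.1 M reads per sample, and the lowest member value, Fosb in HDM replicate 1, corresponded to 14 reads. All 5 type 2 alveolar, 5 type 1 alveolar and 5 endothelial marker genes were at 1 CPM or more in every sample, as the lung label requires. The 7SL RNA genes Rn7s1 and Rn7s2, non-coding RNAs of the signal recognition particle, took a median of 10.9% of the total in aged saline, 28.1% in HDM and 26.8% in HDM + Dex samples. Because CPM are shares of 1 total, more 7SL leaves less for the other genes, and values were therefore also rescaled by the median of ratios, a factor set by the typical gene. Sex, read from Xist and Ddx3y, was female in all 5 adult mice and mixed in the aged groups, with 2 of 5 saline, 2 of 7 HDM and 4 of 7 HDM + Dex mice female. In a bulk sample, fewer cells of a type and less RNA per cell cannot be told apart.

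The upstream sequences of Fos, Jun and both Hsp70 genes are shown because these genes represent the FOS family, the JUN family and the chaperones. Each is the 150 bases before the annotated transcription start, from RefSeq on GRCm38.p6, written 5′ to 3′ on the strand of the gene. Capitals mark matches to the letters searched.
Fos, chr12:85473740-85473889, plus strand: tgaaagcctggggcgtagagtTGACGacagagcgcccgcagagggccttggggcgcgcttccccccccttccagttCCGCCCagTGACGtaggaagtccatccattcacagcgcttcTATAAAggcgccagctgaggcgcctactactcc
Jun, chr4:95052223-95052372, minus strand: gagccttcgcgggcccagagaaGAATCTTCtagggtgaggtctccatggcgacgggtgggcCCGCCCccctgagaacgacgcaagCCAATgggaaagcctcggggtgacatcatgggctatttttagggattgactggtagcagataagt
Hspa1a, chr17:34972157-34972306, minus strand: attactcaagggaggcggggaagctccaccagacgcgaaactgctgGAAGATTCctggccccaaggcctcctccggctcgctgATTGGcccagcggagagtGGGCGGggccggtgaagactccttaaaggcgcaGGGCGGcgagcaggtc
Hspa1b, chr17:34959239-34959388, minus strand: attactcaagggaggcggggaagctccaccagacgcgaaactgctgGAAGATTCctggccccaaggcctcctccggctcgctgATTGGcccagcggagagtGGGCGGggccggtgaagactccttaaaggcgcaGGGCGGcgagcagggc

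Promoter entries were matched for 8 of the 10 genes, and Egr1 and Ier2 were not matched. On both strands, a heat shock element core (GAANNTTC) was found in Jun, Hspa1a and Hspa1b, that is in 3 of 8 members and in 3.95% of 32817 promoter windows of the same length. The cAMP response element core (TGACG) was found in Fos, Fosb, Junb, Atf3 and Nr4a1, against 13.3% of all windows. The Sp1 box (GGGCGG) was found in 7 of 8 members and in 28.6% of windows, CCAAT in 4 of 8 and in 24.5%, and the TATA box (TATAAA) in Fos and in 7.58%. No member held the full cAMP response element TGACGTCA, which contains this core and was found in 1.36% of windows, the AP-1 letters TGANTCA (4.24%) or the CArG box (0.917%) in this window. A match is a description of the letters only. The Hspa1a and Hspa1b windows differed at 1 of 150 positions, and their coding sequences differed at 11 of 1926 aligned positions, with 638 identical bases in the longest run. CPM values of Hspa1a and Hspa1b were whole multiples of 1 read in only 3 and 2 of 24 samples. For Fos, Fosb, Junb, Egr1, Atf3, Ier2 and Nr4a1 this held in 24 of 24, and for Jun, the most abundant member, in 17 of 24. The split of reads between the near-identical Hsp70 genes is therefore uncertain.

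Per kilobase of exon, Jun was the most abundant member in aged naïve lung at 130 CPM per kb ± 30.2 (SD, n = 5). Its lowest mouse, at 101 CPM per kb, was above the highest mouse of every other member. Ier2 followed at 42.6 CPM per kb ± 16.8, Fos at 34.9 ± 21.1 and Junb at 33.6 ± 10.9, and these 3 did not differ beyond their spread. Hspa1b at 22.8 CPM per kb ± 14.1, Egr1 at 17.4 ± 11.7, Nr4a1 at 16.3 ± 9.19, Hspa1a at 13.1 ± 7.78 and Atf3 at 10.2 ± 7.78 also overlapped with their neighbours. Fosb was lowest at 2.78 CPM per kb ± 2.06 (SD, n = 5), with mice between 0.891 and 5.67, and its range overlapped that of Atf3.

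**Figure D1:**
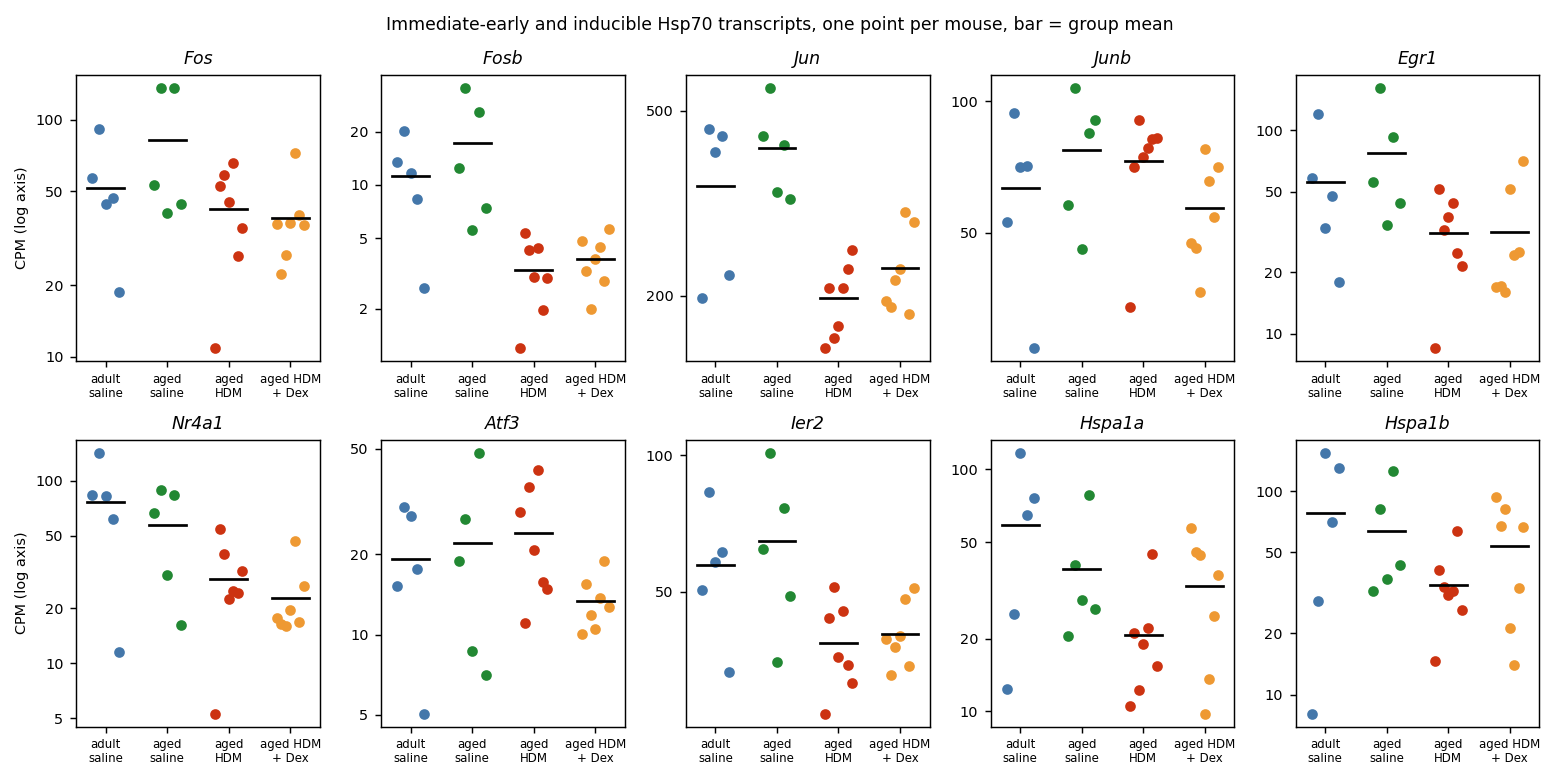
CPM (log axis, a separate scale for each gene) of the 10 genes in each of the 24 mice, by group, with points for mice in order of replicate number and a bar for the group mean. Jun in all 7 HDM mice (154 to 251 CPM) lay below all 5 aged saline mice (322 to 561 CPM), whereas Junb and Atf3 overlapped widely.

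The comparison of HDM with saline in aged mice asked how allergen challenge moved these genes. Expression of Fosb, Jun, Egr1 and Ier2 was lower after HDM, 4 of the 10 members, and no member passed as higher. Mean Fosb was 5.22-fold lower, Egr1 2.48-fold, Jun 2.11-fold and Ier2 1.69-fold (n = 7 and 5). Calls were made by limma on log2(CPM + 1) over 17744 genes, at a Benjamini-Hochberg adjusted p under 0.05. Of all genes tested, 25.3% passed in either direction and 21.2% passed as lower, which is the background for the 4 of 10. Leaving out 1 sample gave 2446 lower genes without saline replicate 3 to 4642 without HDM replicate 6. The median of the 10 log2 fold changes was −0.89, against −0.23 over all genes tested.

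Jun, the principal JUN partner of AP-1 (chr4:95049034-95052222, minus strand, GRCm38), was at 441, 561, 335, 421 and 322 CPM in aged saline mice. In HDM mice it ran from 154 through a median of 207 to 251 CPM. The groups did not overlap, which held for 8.71% of all genes tested in this comparison. The log2 fold change of Jun was −1.06 ± 0.17 (SE, adjusted p = 0.000483, limma), and it was −0.81 ± 0.14 (adjusted p = 0.000736) after rescaling, where the groups also did not overlap.

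Fosb, a FOS family subunit (chr7:19302696-19310051, minus strand), was at 12.4, 35.4, 5.56, 25.8 and 7.42 CPM in aged saline mice. In HDM mice it ran from 1.20 through 3.03 to 5.36 CPM, so that every HDM mouse was below every saline mouse, by a narrow gap. The log2 fold change was −1.86 ± 0.35 (SE, adjusted p = 0.00111, limma). After rescaling it was −1.63 (adjusted p = 0.00374) and the groups overlapped. Jun and Fosb passed in all 12 fits that left out 1 sample.

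Egr1, a zinc finger transcription factor (chr18:34859823-34864984, plus strand), was at 55.8, 163, 34.1, 92.4 and 44.2 CPM in aged saline mice and from 8.47 through 32.2 to 51.3 CPM in HDM mice. The HDM mice were mostly low, but the highest exceeded the lowest saline mice. The log2 fold change of Egr1 was −1.22 ± 0.42 (SE, adjusted p = 0.0379, limma), and −0.97 (adjusted p = 0.102) after rescaling. Egr1 did not pass without saline replicate 1 (adjusted p = 0.0600), saline replicate 2 (0.117), saline replicate 4 (0.0860), HDM replicate 1 (0.0829), HDM replicate 3 (0.0543) or HDM replicate 7 (0.0525).

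Ier2, an early nuclear response gene (chr8:84661331-84662852, minus strand), was at 62.1, 101, 35.0, 76.4 and 48.9 CPM in aged saline mice and from 26.9 through 35.9 to 51.2 CPM in HDM mice. The groups overlapped. The log2 fold change was −0.68 ± 0.20 (SE, adjusted p = 0.0192, limma), and −0.43 (adjusted p = 0.188) after rescaling. Ier2 did not pass without saline replicate 2 (adjusted p = 0.0641) or saline replicate 4 (0.0544).

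The remaining members did not pass. Fos, the founding FOS subunit of AP-1 (chr12:85473890-85477273, plus strand), was at 53.0, 136, 40.6, 137 and 44.1 CPM in saline mice and from 10.9 through 45.0 to 65.7 CPM in HDM mice. The saline mice fell into a high pair and 3 lower mice inside the HDM range, and the log2 fold change was −0.92 ± 0.38 (adjusted p = 0.0800, limma). Nr4a1, an orphan nuclear receptor, had a log2 fold change of −0.93 (adjusted p = 0.118), with saline mice between 16.2 and 89.0 CPM and HDM mice between 5.31 and 54.6 CPM. Nr4a1 passed without saline replicate 5 (−1.30, adjusted p = 0.0339).

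Junb, a JUN family member, and Atf3, a stress-induced ATF/CREB factor, lay apart from the others in this comparison. Junb had a mean of 73.0 CPM in HDM and 77.3 CPM in saline mice, with a log2 fold change of −0.07 (adjusted p = 0.844) that was 0.18 after rescaling. Atf3 had a mean of 24.1 CPM in HDM and 22.004 CPM in saline mice, with a log2 fold change of 0.31 (adjusted p = 0.546). Neither difference was larger than the spread between mice.

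Hspa1a (chr17:34969190-34972156) and Hspa1b (chr17:34956436-34959238), neighbours on the minus strand, encode almost the same Hsp70 protein. Hspa1a was at 20.5, 40.1, 28.8, 78.1 and 26.6 CPM in saline mice and from 10.5 through 18.9 to 44.5 CPM in HDM mice. Its log2 fold change was −0.86 ± 0.40 (adjusted p = 0.113, limma), and without HDM replicate 6, the highest HDM mouse, it was −1.06 (adjusted p = 0.0408). Hspa1b gave −0.78 (adjusted p = 0.175). The sum of both genes gave −0.82 (adjusted p = 0.142), an alternative chosen after seeing the data. This sum was a whole multiple of 1 read in 0 of 24 samples, so it too depends on how reads were assigned.

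**Figure D2:**
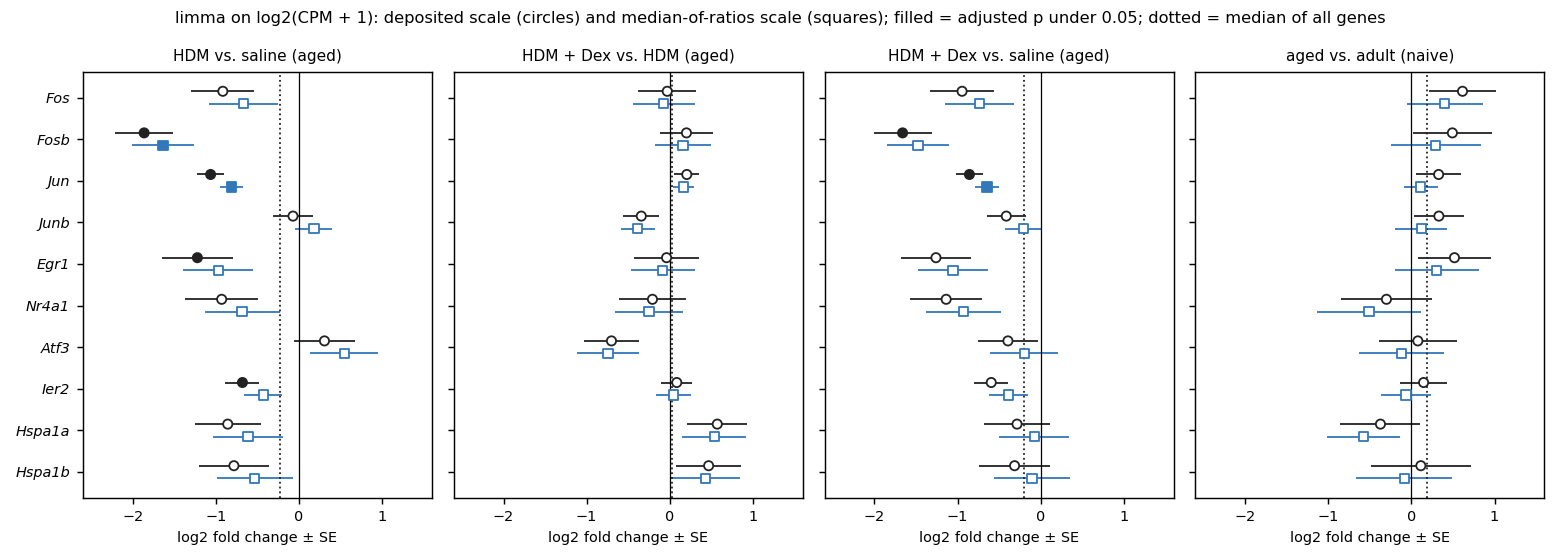
log2 fold change ± SE (x axis) of each gene (y axis) in the 4 comparisons, on the deposited CPM scale (circles) and after median-of-ratios rescaling (squares), with filled symbols for adjusted p under 0.05 and a dotted line at the median of all genes on the deposited scale. For HDM against saline, 4 circles and 2 squares (Fosb and Jun) are filled, and the gene median is −0.23.

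Several sample measures differed between HDM and saline mice. The 7SL share was 13.3 percentage points higher in HDM than in aged saline mice (exact permutation test, 2-sided p = 0.00631). After rescaling, 2 of 10 members passed (Fosb and Jun), and 11.6% of all genes passed as lower. Over all genes the split of higher and lower calls moved from 717 and 3765 on the deposited scale to 1930 and 2050. HDM replicates 6 and 7 had 7SL shares under 25%, as all aged saline mice had. In these 2 mice Jun was at 228 and 251 CPM and Fosb at 1.98 and 2.99 CPM, below the lowest saline mouse in each case. They are also the only female HDM mice, so a low 7SL share and female sex mark the same mice in this group. Among male mice Jun was 154 to 208 CPM in 5 HDM and 322 to 561 CPM in 3 saline mice. Among female mice it was 228 to 251 CPM in 2 HDM and 335 to 421 CPM in 2 saline mice. How many of all genes separate in these splits by 7SL share and by sex was not counted. No background is therefore given for them, and the splits are a description only. Of the cell type markers, 4 of 5 macrophage genes were at 1 CPM or more in every sample, and they summed to 203 to 296 CPM in saline and 411 to 3131 CPM in HDM mice. The 5 heart muscle genes summed to 534 to 984 CPM in saline and 20.3 to 403 CPM in HDM mice, and the 3 club cell genes to 4645 to 6642 and 279 to 2728 CPM, with no gene of these 3 lists at 0 in any sample. The 6 neutrophil genes, the lowest of which reached 0, summed to 80.1 to 266 CPM in saline and 43.3 to 229 CPM in HDM mice. The 4 ciliated cell genes summed to 314 to 456 CPM in saline and 73.7 to 273 CPM in HDM mice. Ribosomal RNA took 0.729% to 1.59% of the total in saline and 2.07% to 3.77% in HDM mice, and mitochondrial transcripts 6.11% to 11.7% and 4.26% to 5.93%. The macrophage, heart muscle, club cell, ciliated cell, ribosomal and mitochondrial values did not overlap between these groups. The part of these measures in the differences of the members was not tested.

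The comparison of HDM + Dex with HDM asked whether the steroid moved these genes in challenged aged mice. None of the 10 members passed, where 0.964% of all genes tested did (limma), and 1 of 10 had an unadjusted p under 0.05, against 13.5% of all genes. The 171 genes of this background became 2 without HDM replicate 5 and 544 without HDM replicate 2, 1 with only these 2 groups fitted, 8 with the replicate number as a block and 611 with sample weights, so the background itself is unsteady. No member's groups were separate, against 0.225% of genes tested. Fos had a mean of 38.6 CPM in HDM + Dex and 42.1 CPM in HDM mice, Egr1 31.6 and 31.4 CPM, and Ier2 40.4 and 38.4 CPM. These differences were well inside the spread between mice.

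Atf3 was the member with an unadjusted p under 0.05, a share of the members that is near that of all genes. It was at 10.02 to 18.9 CPM in HDM + Dex mice, with a median of 12.7 CPM, and at 11.0 to 41.6 CPM in HDM mice, with a median of 20.7 CPM. The highest HDM + Dex mouse exceeded the lowest by 1.89-fold, against 3.77-fold in HDM, and the groups overlapped. The log2 fold change of Atf3 was −0.70 ± 0.33 (SE, adjusted p = 0.355, limma).

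Hspa1a and Hspa1b were the members with the most positive estimates under Dex. Hspa1a ran from 9.80 through 36.6 to 57.1 CPM in HDM + Dex mice and from 10.5 through 18.9 to 44.5 CPM in HDM mice, with a log2 fold change of 0.57 ± 0.36 (adjusted p = 0.536, limma). Hspa1b ran from 13.9 through 66.3 to 93.7 CPM and from 14.6 through 32.5 to 63.6 CPM, with 0.47 ± 0.39 (adjusted p = 0.669). For both genes the HDM range lay inside the wider HDM + Dex range. The HDM + Dex median of Hspa1b, 66.3 CPM, was nonetheless above the highest HDM mouse, at 63.6 CPM. Junb had a log2 fold change of −0.34 ± 0.21 (adjusted p = 0.533) and Jun of 0.21 ± 0.15 (adjusted p = 0.614).

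Set against aged saline mice, HDM + Dex mice had lower Fosb and Jun, 2 of 10 members, with a background of 1.89% of genes tested in either direction and 1.44% as lower. Leaving out 1 sample moved the 335 genes called to between 66 (without saline replicate 3) and 772 (without HDM + Dex replicate 7), and sample weights gave 5471. This comparison shares its 5 saline mice with that of HDM and saline. Jun ran from 182 through 216 to 303 CPM in HDM + Dex mice, all below the lowest saline mouse at 322 CPM, a separation seen in 2.4% of genes tested. Its log2 fold change was −0.86 ± 0.17 (SE, adjusted p = 0.0124, limma), and −0.64 (adjusted p = 0.0306) after rescaling, where the groups overlapped. With the 7SL share as a covariate Jun did not pass (−0.63, adjusted p = 0.137).

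Fosb ran from 2.01 through 3.83 to 5.64 CPM in HDM + Dex mice, and only the highest of them exceeded the lowest saline mouse. Its log2 fold change was −1.66 ± 0.35 (SE, adjusted p = 0.0202, limma). Fosb did not pass after rescaling (−1.48, adjusted p = 0.0534), when 0.451% of all genes passed as lower, or without saline replicate 4 (adjusted p = 0.0643), HDM + Dex replicate 2 (0.0521) or HDM + Dex replicate 6 (0.0520). The other 8 members had estimates between −1.26 for Egr1 and −0.28 for Hspa1a and did not pass. Egr1 passed without HDM + Dex replicate 7 (−1.48, adjusted p = 0.0410), the mouse with the highest Egr1 of its group.

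The naïve aged mice were compared with the naïve adult mice, groups that differed in sex and 7SL share as well as age. All 5 adult mice were female, against 2 of 5 aged mice. The 7SL share was 13.6% to 42.0% in adult and 9.92% to 18.1% in aged mice. Age, sex and 7SL share therefore cannot be fully told apart here. None of the 10 members passed (limma), with a background of 0.654%, and none had an unadjusted p under 0.05, against 11.2% of all genes. Groups overlapped for every member, whereas 3.09% of all genes tested had separate groups. The largest estimate was that of Fos, 0.61 ± 0.40 (SE, adjusted p = 0.553), with means of 82.0 CPM in aged and 51.6 CPM in adult mice. Hspa1a had the lowest estimate, −0.37 ± 0.48, with means of 38.8 and 59.1 CPM, followed by Nr4a1 at −0.30 ± 0.55, with means of 57.0 and 76.1 CPM. The adult mice were themselves widely spread. Nr4a1 was at 83.6, 142, 82.0, 61.3 and 11.6 CPM, and Hspa1b at 8.08, 28.9, 154, 70.6 and 130 CPM in adult replicates 1 to 5. Adult replicate 1, the lowest for both Hsp70 genes, had the highest 7SL share of the study at 42.0%.

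Variation between mice of the same group was a main feature of these genes. The residual SD of log2(CPM + 1) within groups was 1.07 for Hspa1b, 0.98 for Nr4a1, 0.90 for Hspa1a, 0.87 for Egr1, 0.76 for Fos, 0.76 for Atf3 and 0.73 for Fosb, against a median of 0.36 over the 17744 genes tested. These 7 genes ranked from the 97.1st percentile for Fosb to the 99.3rd for Hspa1b. Junb (SD of 0.50) and Ier2 (0.40) ranked lower, and Jun was near the typical gene with an SD of 0.37, at the 54.6th percentile. On the CPM scale, the highest mouse exceeded the lowest by 19.1-fold for Hspa1b in naïve adult and by 12.3-fold for Nr4a1, against 1.63-fold for Jun in HDM mice. After rescaling these were 10.2-fold, 12.3-fold and 1.34-fold, and the SDs were 1.01 for Hspa1b and 0.28 for Jun. On that scale Junb (SD of 0.48) was at the 89.7th percentile, Ier2 (0.46) at the 87.0th and Jun at the 45.9th. The median SD over all genes tested was then 0.29.

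**Figure D3:**
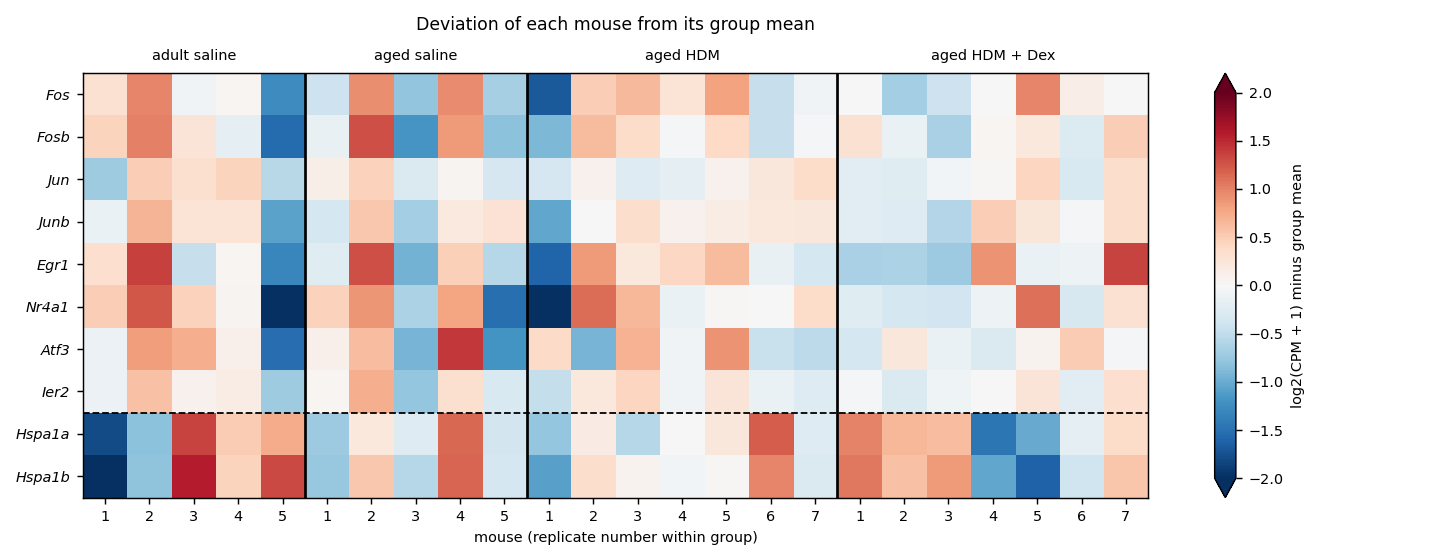
Deviation of log2(CPM + 1) from the group mean (colour, saturated beyond ±2) for each gene (rows) in each of the 24 mice (columns, by group and replicate number), with a dashed line above Hspa1a and Hspa1b. Adult replicate 5 is low in all 8 immediate-early genes and high in both Hsp70 genes, whereas HDM replicate 1 is low in 9 of the 10 genes.

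The same mice tended to be high or low for all 8 immediate-early genes. On the deposited scale, adult replicate 2 was the highest of its group for all 8. After rescaling it was the highest for Jun, Egr1 and Atf3 only, and adult replicate 1 was the highest for the other 5. On both scales, aged saline replicates 2 and 4 were above their group mean for all 8. Adult replicate 5 was below its group mean for all 8 on both scales and the lowest of its group for 7 (8 after rescaling), among them Fos at 18.7 CPM and Nr4a1 at 11.6 CPM. HDM replicate 1 was the lowest of its group for 9 of the 10 members, Atf3 being the exception at 28.8 CPM, and for 8 after rescaling.

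In the adult and HDM + Dex groups, the Hsp70 genes did not follow this order of mice. Adult replicate 5, with the lowest Fos of its group, had Hspa1a at 76.2 CPM and Hspa1b at 130 CPM, whereas adult replicate 1 had Fos at 56.9 CPM and Hspa1a at 12.3 CPM. In the HDM + Dex group, replicate 5 had the highest Fos, at 72.2 CPM, and the lowest Hspa1b, at 13.9 CPM. The order was partly shared in the other groups. Aged saline replicates 2 and 4 were above their group mean for both Hsp70 genes too, and HDM replicate 1 was the lowest of its group for both.

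As a description over 24 mice with group means removed, all 28 pairs of immediate-early genes had a positive Pearson r, from 0.34 for Jun with Atf3 through a median of 0.72 to 0.90 for Fosb with Ier2. Hspa1a and Hspa1b had r = 0.95, Spearman's rho = 0.95 and r = 0.94 without the 2 farthest mice, where shared reads between the near-identical genes enter both values. The 16 pairs of an immediate-early with an Hsp70 gene ran from −0.17 to 0.20 with a median of −0.04. After rescaling, these medians were 0.76 within the immediate-early genes and −0.06 between the sets. Points of 1 library share its depth and 7SL share. The 7SL share correlated with Jun (r = −0.61, n = 24) but not closely with Fos (0.13), and after rescaling the values were 0.05 for Jun and 0.40 for Fos.

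**Figure D4:**
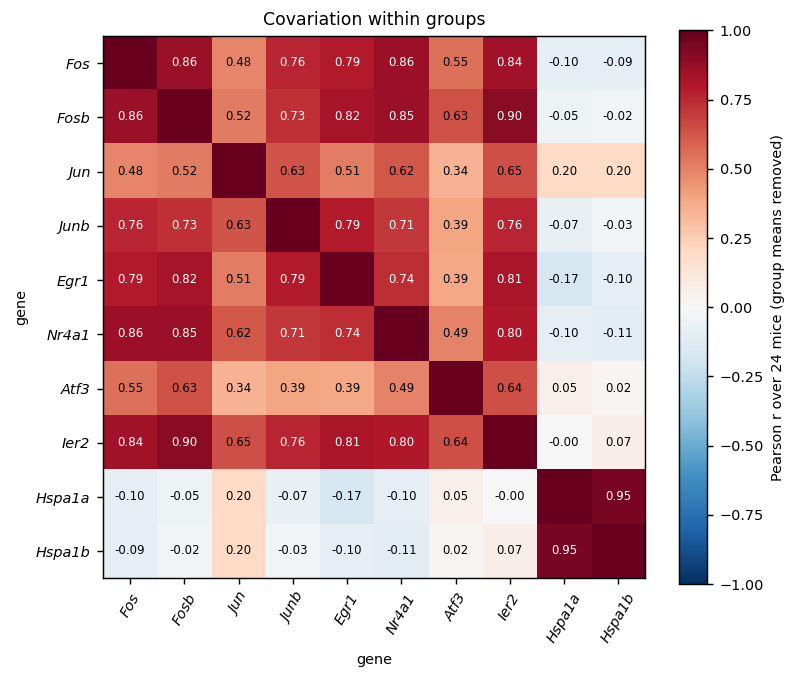
Pearson r between each pair of genes over the 24 mice after removal of group means, by colour and printed value, on the deposited CPM scale. The 8 immediate-early genes form a block with r from 0.34 to 0.90, and Hspa1a and Hspa1b a pair with r = 0.95.

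Among the other 17734 genes tested, those most like Fos by Pearson r over the same 24 values were Zfp36 (r = 0.83), a destabiliser of AU-rich mRNAs, Dusp1 (0.82), a MAP kinase phosphatase, Btg2 (0.77), an antiproliferative early gene, Kcne4 (0.77), a potassium channel subunit, and Csrnp1 (0.75). Without the 2 mice farthest from the median of Fos these values were 0.72, 0.69, 0.59, 0.67 and 0.55. After rescaling, Ppp1r15a (r = 0.82) took the place of Kcne4 among the 5. The genes most like Hspa1a were Banp (r = 0.84), Hsph1 (0.80), an Hsp110 co-chaperone, Capn12 (0.76), Dnaja1 (0.75), an Hsp40 co-chaperone, and Gm44891 (0.75). Banp and Hsph1 remained among the 5 after rescaling, with r of 0.86 and 0.79.

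Further early-response genes were examined in 4 lists, given as counts beside all genes. Of 24 other immediate-early transcription factors tested, 11 were lower and 2 higher in HDM than in saline aged mice, with a median log2 fold change of −0.53 against −0.23 over all genes. The shares of all genes to read these counts against are 21.2% lower and 4.04% higher. After rescaling they are 11.6% lower, with 1930 of 17744 genes higher. The 4 with the largest change were Nr4a2 (−1.33, adjusted p = 0.00279, limma) and Nr4a3 (−1.09, adjusted p = 0.00144), the other NR4A receptors, Arc (−0.996, adjusted p = 0.0424), and Egr2 (1.20, adjusted p = 0.0105), an EGR family member that moved opposite to Egr1. Nr4a3 had a mean of 16.04 CPM ± 5.14 in HDM and 34.1 CPM ± 6.62 in saline mice (SD, n = 7 and 5), and Egr2 19.4 ± 8.35 and 7.53 ± 2.85 CPM. After rescaling, 7 were lower and 4 higher, and Arc did not pass (adjusted p = 0.0939).

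Of 39 feedback and other early genes, 16 were lower and 2 higher in HDM mice, and 6 and 3 after rescaling. Errfi1, an inhibitor of EGF receptor signalling, had a mean of 88.9 CPM ± 35.8 in HDM and 268 CPM ± 56.9 in saline mice (log2 fold change −1.69, adjusted p = 0.000816, limma). Dusp1 (−1.21, adjusted p = 0.0239), Dusp8 (−1.15, adjusted p = 0.00124) and the kinase gene Sik1 (−1.07, adjusted p = 0.00898) were also lower. Dusp1 did not pass after rescaling (adjusted p = 0.0848).

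Of 27 heat shock factor 1 targets and chaperones, 15 were lower and none higher in HDM mice, and 8 and 0 after rescaling, beside the uncalled Hspa1a and Hspa1b. Hspa4l (−1.27, adjusted p = 0.000419, limma) and Hsph1 (−1.04, adjusted p = 0.00579) are Hsp110 family genes, Hspb1 (−1.16, adjusted p = 0.00172) is a small heat shock protein and Dnajb4 (−1.15, adjusted p = 0.000375) an Hsp40 co-chaperone. Of 28 AP-1 partners and upstream regulators, 6 were lower and 1 higher, with a median of −0.24, a share of lower genes near that of all genes. After rescaling 2 were lower and 4 higher, with a median of 0.00. Of all 17744 genes, 2050 were lower and 1930 higher on that scale, with a median of −0.01, so this list was near all genes. Batf3, an AP-1 partner known from dendritic cells, was the 1 that rose, from 1.52 CPM ± 0.37 to 9.56 CPM ± 4.82 (log2 fold change 1.93, adjusted p = 0.000509). Mapk8 (−0.66, adjusted p = 0.0155), Atf4 (−0.61, adjusted p = 0.00594) and Mrtfb (−0.52, adjusted p = 0.0155) were lower, and Mrtfb did not pass after rescaling (adjusted p = 0.0519). Leaving out 1 sample, the transcription factors had 7 to 12 lower calls and the feedback genes 12 to 19. The chaperones then had 9 to 18 and the AP-1 partners and regulators 2 to 7, beside 2446 to 4642 of all genes. Under the other alternatives these were 1 to 13, 3 to 22, 4 to 21 and 0 to 10, beside 399 to 6713.

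**Figure D5:**
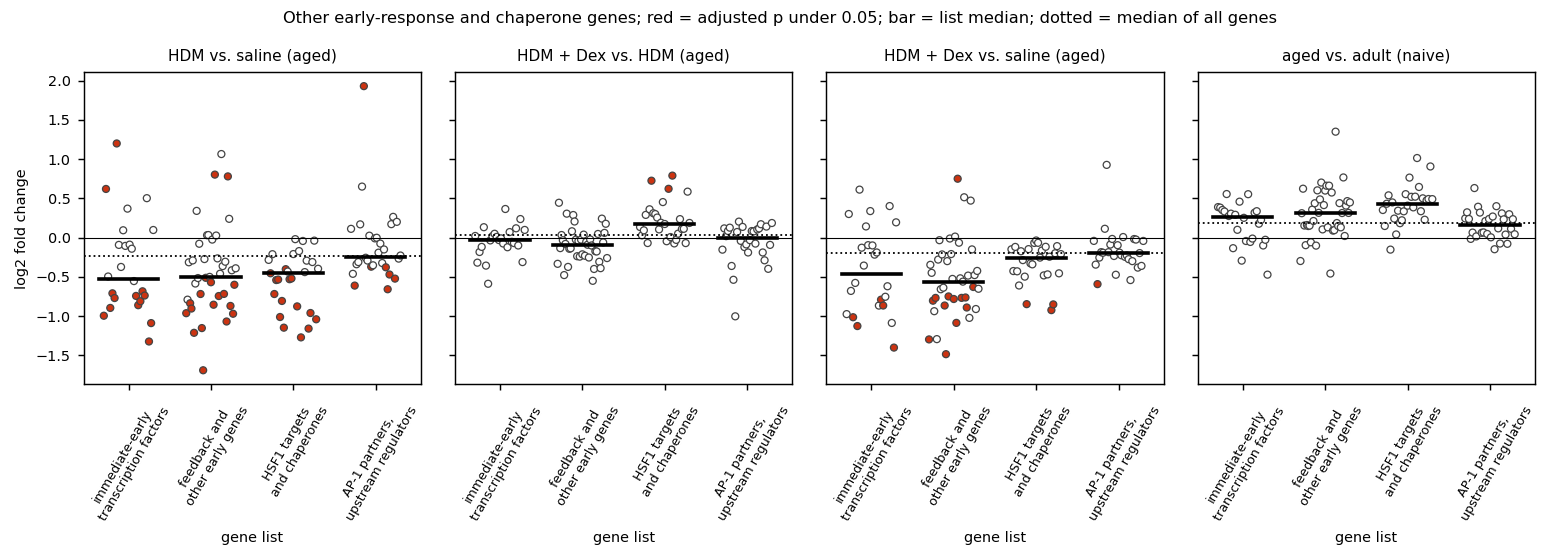
log2 fold change on the deposited scale (y axis) of the genes of the 4 further lists (x axis, genes in alphabetical order) in the 4 comparisons, with red points for adjusted p under 0.05, a bar for each list's median and a dotted line at the median of all genes. In HDM + Dex against HDM the only red points are 3 chaperone genes above 0.

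Under Dex the chaperone list held the only calls of the 4 lists. In HDM + Dex against HDM, 3 of 27 chaperone genes were higher and none lower on both scales. Of all genes, 0.75% passed as higher on the deposited scale, and 353 of 17744 after rescaling. Hspa4l was at 93.6 CPM ± 19.1 against 55.1 CPM ± 17.4 (SD, n = 7 and 7; log2 fold change 0.79, adjusted p = 0.0356, limma), Dnaja4, an Hsp40 co-chaperone, gave 0.73 (adjusted p = 0.0270) and Hspa2, an Hsp70 family gene, 0.62 (adjusted p = 0.0457). The list median was 0.17, against 0.03 over all genes. These calls were not stable. None of the 3 genes passed with only the 2 groups fitted (adjusted p = 0.0723 to 0.104, limma) or with the replicate block (0.0678 to 0.0771). None passed either without HDM replicate 1, 3, 4 or 5 or without HDM + Dex replicate 1, 3, 4 or 5, and Dnaja4 alone passed without HDM + Dex replicate 7. Their log2 fold changes were positive in every fit, from 0.54 to 0.88. Mitochondrial transcripts took 6.31% to 11.1% of the total in HDM + Dex and 4.26% to 5.93% in HDM mice, without overlap, and the part of this in the calls was not tested. In the other lists 0 genes passed, and the lowest p-values belonged to Egr2 (−0.59, adjusted p = 0.395), Klf10 (0.36, adjusted p = 0.467), Ccn2 (−0.48, adjusted p = 0.186), Rgs2 (−0.40, adjusted p = 0.235), Batf3 (−1.004, adjusted p = 0.0868) and Rps6ka1 (−0.40, adjusted p = 0.134).

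Against saline, HDM + Dex mice had 5 of 24 early transcription factors lower, 12 of 39 feedback genes lower and 1 higher, 3 of 27 chaperones lower and 1 of 28 AP-1 partners and regulators lower, where 1.44% of all genes were lower. After rescaling these were 2 lower, 3 lower and 1 higher, 1 lower and 0, where 0.451% of all genes were lower. Of all 17744 genes, 79 were higher on the deposited scale and 87 after rescaling. Leaving out 1 sample, the lower calls ran from 1 to 8, from 1 to 15, from 0 to 4 and from 0 to 2. Nr4a3 (−1.40, adjusted p = 0.00188, limma) and Errfi1 (−1.49, adjusted p = 0.0151) had the largest changes of their lists. Of the other named feedback genes, Apold1 (−1.30, adjusted p = 0.0448) and Rhob, a small GTPase gene (−0.89, adjusted p = 0.0194), were lower, and Rhob passed after rescaling (adjusted p = 0.0459) but Apold1 did not (0.0983). Csrnp1 (−1.13, adjusted p = 0.0155), Cebpd (−1.02, adjusted p = 0.0247) and Klf6 (−0.87, adjusted p = 0.0248) were lower as well, and so was the clock gene Per1 (−1.09, adjusted p = 0.0386), but of these only Klf6 passed after rescaling (adjusted p = 0.0432). The chaperone genes lower than in saline were Hspb1 (−0.93, adjusted p = 0.0444), Hspb8 (−0.85, adjusted p = 0.0425) and Dnajb4 (−0.85, adjusted p = 0.0149), and the regulator was Atf4 (−0.59, adjusted p = 0.0442). In aged against adult naïve mice none of the genes of the 4 lists passed, and the lowest p-values belonged to Srf (−0.47, adjusted p = 0.446, limma), Klf10 (0.55, adjusted p = 0.471), Rgs1 (1.35, adjusted p = 0.169), Pim1 (0.66, adjusted p = 0.201), Hspa5 (1.01, adjusted p = 0.264), Hspa2 (0.52, adjusted p = 0.418), Batf (0.63, adjusted p = 0.366) and Batf3 (0.39, adjusted p = 0.490).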

How the data were processed

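Lung RNA of 24 mice was analysed. By the paper's methods, the authors' libraries were stranded and from mRNA, reads were paired, and a Picard-STAR-limma pipeline was used. They deposited CPM per gene with 0.0001 added to each value. The submitters' processing notes name FastQC, STAR and DESeq2 without versions and the build mm9, whereas the gene coordinates in the table fit GRCm38 (23142 of 23276 symbols had the same start). Raw counts were not used here. The members and the lists were chosen with earlier results of these data known.

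CPM were tested as log2(CPM + 1) with limma 3.58.1 in R 4.3.3 (empirical Bayes with trend), over the 17744 genes whose mean reached 1 CPM, by Benjamini-Hochberg adjusted p under 0.05. The 3 comparisons of aged mice shared 1 fit of 19 samples, and the naïve ages were fitted in 10 samples. Fold changes on this scale understate the change of low genes. The procedure was checked on simulated data with independent genes, where only genes of below-median spread were changed. That check does not cover genes as variable, or moving together as closely, as most members. Depth was estimated from the spacing of low CPM values, taken as 1 read. Since 80.4% to 85.1% of low values were whole multiples, within 0.05 of a spacing, tests on counts were not run. Depth covers counting error only. The labels do not say how mice were housed or processed together, and p-values measure the spread between these samples. The 62 pairs of replicates had r of 0.942 to 0.989, and no pair was identical.

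All 10 members were named. From each further list, up to 4 called genes with the largest change were named, or the 2 with the lowest p where none passed, and so were the 5 genes most like Fos and Hspa1a by Pearson r. Correlations are descriptions without a p-value. Alternatives were other pseudocounts (0.1 and 5) and filters (none and 5 CPM), rescaling, a total without 7SL, other sets of samples, no trend, sample weights, the replicate number as a block, covariates and leaving out each sample. Rescaling with sex as a covariate, rescaling and the other alternatives for the further lists, and the sum of Hspa1a and Hspa1b were added after seeing the data.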

Additional observations from a re-analysis of the deposited data

Results flagged for a closer look

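In each of the 40 sets of values (10 genes in 4 groups), the highest and the lowest mouse on the log2(CPM + 1) scale were compared with the others by Dixon's test at the 95% level. Chance marks about 1 in 20 sets, that is 2 of 40, and 2 were marked. Both belong to HDM replicate 1, the lowest mouse of its group for Junb at 33.7 CPM (0.75 of the range separated it from the next mouse) and for Nr4a1 at 5.31 CPM (0.60 of the range).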

How the results depend on the processing

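With HDM against saline, 4 members passed. The count was 2 after median-of-ratios rescaling, with the total taken without 7SL, with the 7SL share as a covariate and with rescaling plus sex, and in each of these Egr1 and Ier2 did not pass. In these fits 2050, 2016, 399 and 2064 of all genes passed as lower, in that order, against 3765 in the main fit. The count was 3 with no filter and with all 24 samples in one fit, beside 4003 and 2828 lower genes. There Egr1 did not pass (adjusted p = 0.0509 and 0.0502, limma). With sample weights it was 5, beside 6713 lower genes of 17744, and Nr4a1 passed (adjusted p = 0.0253, limma). Leaving out 1 sample gave 2 to 5, with 2 without saline replicate 2 or 4. With HDM + Dex against saline, 2 passed, against 1 after rescaling, 0 with the 7SL covariate, 5 with sample weights, and 1 to 3 leaving out 1 sample (1 without saline replicate 4 or HDM + Dex replicate 2 or 6). Of all genes, 256 passed as lower in this main fit. Rescaling gave 80, the 7SL covariate 6, sample weights 4995 and leaving out 1 sample 39 to 643. The counts of 0 in HDM + Dex against HDM and in aged against adult mice were 0 under every alternative run. Beside them, 1 to 611 and 65 to 784 of all genes passed. Replicate numbers did not pair the samples (r above 0.1 in 4 of 32 same-numbered pairs, from −0.24 to 0.41). With the replicate block the counts in HDM against saline, HDM + Dex against HDM, HDM + Dex against saline and aged against adult mice were 4, 0, 2 and 0. Of all genes, 5644, 8, 898 and 168 passed with this block.

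Estimates of members that did not pass changed sign as follows. In HDM against saline, Junb was 0.18 after rescaling, 0.17 without 7SL in the total, 0.21 with the 7SL covariate, 0.18 with rescaling and sex, and −0.24 to 0.10 leaving out 1 sample, and Atf3 was −0.13 with the 7SL covariate. In HDM + Dex against HDM, Nr4a1 was 0.00 with sample weights, and Fos and Egr1 ran from −0.31 to 0.10 leaving out 1 sample. In HDM + Dex against saline, Hspa1a ran from −0.47 to 0.00. In aged against adult mice, after rescaling, Atf3 was −0.12, Ier2 −0.06 and Hspa1b −0.09. Without 7SL in the total they were −0.07, −0.01 and −0.03. With sample weights Atf3 was −0.39, Ier2 −0.14, Hspa1b −0.55, Jun −0.01 and Junb −0.11. With sex Ier2 was −0.08 and Hspa1a 0.07, with rescaling and sex Jun was −0.04, Junb −0.15 and Ier2 −0.32, and with the 7SL covariate Hspa1b was −0.75. Leaving out 1 sample, Atf3 ran from −0.31 to 0.38, Ier2 from −0.04 to 0.34, Nr4a1 from −0.87 to 0.07 and Hspa1b from −0.52 to 0.50. The cause of these changes was not tested. Depth limits Fosb most, at 14 to 514 reads.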

Other observations

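In HDM + Dex mice, with sex read from Xist and Ddx3y, Hspa1a and Hspa1b were higher in each of 3 male than in each of 4 female mice. For Hspa1b the gap was narrow on the deposited scale, at 67.4 against 66.3 CPM. After rescaling it was 74.3 against 53.6, so its width depends on the scale. How many of all genes separate the sexes in this group was not counted, so no background is given for it. In HDM mice the ranges of the sexes overlapped. This pattern was seen after the values were known and is given without a test. Among male mice, Hspa1a was 44.1 to 57.1 CPM in 3 HDM + Dex mice and 10.5 to 22.1 CPM in 5 HDM mice, and Hspa1b was 67.4 to 93.7 CPM and 14.6 to 41.1 CPM, so that the groups did not overlap. With these 3 and 5 mice, 9.08% of all genes tested did not overlap, and 5.02% were higher in every HDM + Dex mouse. Among female mice, Hspa1a was 9.80 to 36.6 CPM in 4 HDM + Dex mice and 15.4 and 44.5 CPM in 2 HDM mice, and Hspa1b was 13.9 to 66.3 CPM and 26.1 and 63.6 CPM, so that the groups overlapped for both genes. The 3 male HDM + Dex mice had 7SL shares of 26.8% to 31.6%, and 3 of the 4 female ones had 11.3% to 18.9%, so that sex and 7SL share largely cannot be told apart in this group.

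The ratio of Hspa1b to Hspa1a was above 1 in all 19 aged mice and in 4 of 5 adult mice, with a median of 1.61 in aged saline, 1.63 in HDM and 1.64 in HDM + Dex mice and 1.15 in adult mice. Because the genes share most of their sequence, the ratio depends on how reads were assigned.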
